A study of Mus musculus with 7 samples.

Results

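Intracisternal A particle (IAP) elements are mouse long terminal repeat (LTR) retrotransposons, and the loci described here are their internal sequences, the coding stretches between the 2 LTRs, chosen as every row of the RepeatMasker count table whose element name starts with IAP and ends with -int. This choice used names only, and it held 14825 loci under 9 names, of 3494995 repeat loci in the table. RNA-Seq was performed on whole fetal testes of C57BL/6 mice at embryonic day 14.5 (E14.5), with 1 pair of testes from 1 embryo per library. The libraries were 3 labelled wild-type (WT replicates 1 to 3) and 4 labelled *Glis3* mutant (mutant replicates 1 to 4). The mutants were homozygous for *Glis3* zf5, a global allele that lacks exon 4 and parts of the flanking introns, so the loss was not limited to 1 cell type of the testis. The sources used here do not say which embryos were littermates, and p-values therefore measure the spread between these embryos only. The comparison asks whether IAP transcripts differed between WT and *Glis3* mutant testes at this stage.

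An IAP element is copied from its own RNA: transcription starts in the 5′ LTR, runs through the internal sequence that encodes the capsid protein Gag and the enzymes of Pol, and ends in the 3′ LTR. The IAPE names belong to elements related to a type that also carries an envelope gene. Most copies in the mouse genome are shortened or mutated, and in somatic cells they are kept silent by DNA methylation and by repressive histone marks laid down with KAP1 and SETDB1. In fetal male germ cells DNA methylation of the genome at large is erased and then written again by DNMT3A, DNMT3L and DNMT3C. How far IAP copies lose it was not measured here. At young elements the writing is guided by small RNAs (piRNAs) bound to PIWI proteins.

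IAPEY4_I-int, the name with most of the reads, is shown by its sequence first, because its loci are also annotated as spliced genes. In GENCODE M21, which has the build of the count table (mm10), 5 genes had a first exon that ended between base 120 and base 126 of an IAPEY4_I-int locus, counted from 1 at the 5′ end of the internal sequence, and joined an exon that started between 2234 and 2238 bases before its 3′ end. They were Gm40849 at chr12:19049569-19057217 (plus strand), Gm47547 at chr14:41053728-41061339 (plus), Gm8113 at chr14:43925486-43933140 (plus), Gm49083 at chr14:43804701-43812362 (minus) and AC132253.9 at chr19:9829174-9836838 (minus). Gm8113 was annotated as protein-coding, with its reading frame in the second of these exons, Gm47547 as antisense and the other 3 as long noncoding RNAs. The last 60 bases before the junction are given in lower case and the first 60 bases after it in capitals for the 4 noncoding genes:
Gm40849: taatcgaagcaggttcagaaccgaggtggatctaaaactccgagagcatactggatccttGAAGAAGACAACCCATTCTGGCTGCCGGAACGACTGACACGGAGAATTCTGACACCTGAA
Gm47547: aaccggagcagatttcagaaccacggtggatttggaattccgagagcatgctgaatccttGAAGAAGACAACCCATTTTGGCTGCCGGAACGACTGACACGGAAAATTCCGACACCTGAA
Gm49083: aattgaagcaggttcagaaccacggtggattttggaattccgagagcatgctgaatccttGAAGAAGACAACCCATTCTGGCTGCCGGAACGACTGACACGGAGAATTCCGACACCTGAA
AC132253.9: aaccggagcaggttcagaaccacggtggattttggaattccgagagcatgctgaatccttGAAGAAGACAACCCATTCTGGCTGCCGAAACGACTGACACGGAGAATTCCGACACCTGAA

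The same 6 bases preceded the junction in all 4 (atcctt) and the same 6 followed it (GAAGAA). Gm8113, not printed above, differed, with gtcttt before and AAGACA after its junction. Over their whole 3′ exon parts, the genes with the part in full were 97.0 to 98.6% identical (6 pairs), and over their 5′ parts the 5 genes were 80.2 to 96.0% identical (10 pairs). The deposited table counts only uniquely mapped reads, so a read from a stretch that several of these loci share was not counted for any of them.

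The start of an IAPEY4_I-int element is shown with its LTR because the transcription start of a RefSeq gene, Gm52042, lies in it. The promoter window of this gene (RefSeq, GRCm38.p6) spans chr13:25007466-25007765 on the plus strand, with 260 bases of the LTR side in lower case and the first 40 bases of the internal sequence of the locus chr13:25007726-25015393 in capitals:
Gm52042: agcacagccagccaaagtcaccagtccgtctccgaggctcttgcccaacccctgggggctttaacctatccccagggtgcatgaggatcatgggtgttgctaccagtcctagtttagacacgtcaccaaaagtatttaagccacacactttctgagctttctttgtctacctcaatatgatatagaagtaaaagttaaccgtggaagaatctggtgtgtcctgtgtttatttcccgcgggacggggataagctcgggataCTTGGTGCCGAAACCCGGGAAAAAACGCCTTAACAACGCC

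This window held 12 CpG dinucleotides, the sites of DNA methylation in mammals, beside a median of 7 over 32851 RefSeq promoter windows, of which 60.4% held fewer. The locus it opens had 499, 384 and 620 reads in WT replicates 1 to 3 and 367, 424, 420 and 422 reads in mutant replicates 1 to 4. It runs inside the gene *Mrs2* on the opposite strand.

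The libraries held 3454317 to 4670830 counted repeat reads, of which 0.788 to 1.02% fell on IAP internal sequence. In FPKM, fragments scaled to gene length and library size, *Glis3* was at 7.63, 6.89 and 2.91 in the WT and at 3.86, 3.26, 2.90 and 2.66 in the mutant libraries, each in replicate order, so the library labelled WT replicate 3 lay within the mutant range (log2 fold change -0.69, standard error 0.28, adjusted p = 0.268 from limma). FPKM covers the whole gene, including exons outside the deletion. Defining genes of Sertoli cells (5 of 5) and fetal Leydig cells (5 of 5) were detected in every library, as is usual for testis. The Leydig cell genes had positive fold changes throughout (median 0.47), none called by limma. Of these, 4 had an unadjusted p under 0.05 in limma, beside 8.21% of all genes higher. Groups were apart for *Insl3* (214 ± 35.5 and 338 ± 36.4 FPKM) and *Cyp11a1* (535 ± 150.1 and 768 ± 43.2 FPKM). The mean log2(FPKM + 0.5) of 6 germ cell genes was 5.91, 5.67 and 4.73 in WT replicates 1 to 3 and ranged from 4.32 to 4.54 in the mutants. That of 4 skeletal muscle genes ranged from -0.35 to 2.12 in the WT and from -0.35 to 3.0 in the mutant libraries. In RNA of whole testes, fewer cells of a type and less RNA per cell cannot be told apart.

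Summed uniquely mapped reads of IAP internal loci did not differ between WT and mutant testes beyond the spread of the embryos. Reads are given from here on as CPM, the reads per 1000000 of the effective library size of edgeR (total counted repeat reads times the TMM factor). The 14825 loci together had 7028, 9652 and 10163 CPM in WT replicates 1 to 3 and 8022, 7849, 9344 and 8608 CPM in mutant replicates 1 to 4. WT replicate 1 was the lowest and the library labelled WT replicate 3 the highest of all 7, so the mutant libraries lay inside the WT range. The means were 8948 ± 1682 (SD, n = 3) and 8456 ± 675 CPM (SD, n = 4), and the mean difference was -0.067 on the log2 scale (two-sided exact permutation test over 35 splits, p = 0.714, adjusted over 9 such sums p = 0.914). The smallest p-value this design allows is 0.0286. IAPEY4_I-int held 71.0% of these reads. Without it, the sum was 2715 ± 856 CPM in WT (SD, n = 3) and 2368 ± 166 CPM in mutant testes (SD, n = 4). The log2 difference was then -0.16 (p = 0.714, exact, unadjusted).

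Most loci had no uniquely mapped read. Of the 14825 loci, 5033 had a read in any library, 1051 averaged 1 read or more over the 7 libraries and were tested, and 164 averaged 10 or more. Just 6 loci, all of IAPEY4_I-int, held 51.0% of all reads. The share of loci with reads rose with length, from 10.8% of the 6827 loci under 500 bases through 40.1% of the 5099 loci of 500 to under 2000 bases and 73.4% of the 1695 loci of 2000 to under 5000 bases to 83.8% of the 1204 loci of 5000 bases or more. The longest class covered 7948 kb and held 58.9% of the reads. It is the class in which near-complete internal sequences fall.

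No length class passed the test between genotypes. Loci of 5000 bases or more had 5207 ± 971 CPM in WT (SD, n = 3) and 5014 ± 477 CPM in mutant testes (SD, n = 4), with a log2 difference of -0.042 (exact permutation test, p = 0.771). Loci under 500 bases had 495 ± 102 and 474 ± 17.7 CPM (log2 difference -0.043, p = 0.886, exact). The classes of 500 to under 2000 bases and of 2000 to under 5000 bases differed by -0.15 (p = 0.600, exact) and -0.073 (p = 0.743, exact). In each class the adjusted p was 0.914 and the libraries of the groups overlapped.

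Sums of loci inside and outside genes did not pass the test either. Inside protein-coding genes of GENCODE M21 lay 1779 loci, of which 1404 (78.9%) were on the strand opposite to the gene and 375 on its strand, the usual bias of LTR elements in mammalian introns. Loci on the opposite strand had 1324, 1805 and 1837 CPM in WT replicates 1 to 3 and 1204, 1540, 1693 and 1460 CPM in mutant replicates 1 to 4. Their log2 difference was -0.16 (p = 0.457, exact), and that of loci on the strand of the gene was 0.059 (p = 0.914, exact). The 13046 loci outside genes differed by -0.068 (p = 0.629, exact). The reads carry no strand, so for loci in genes a read of the element and a read of unspliced gene RNA cannot be told apart.

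**Figure D1:**
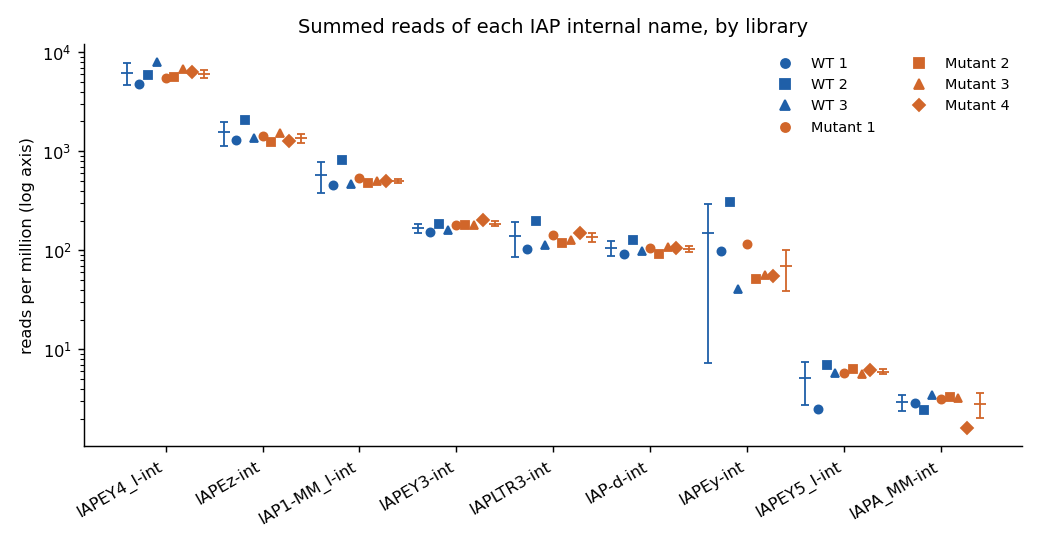
CPM (log axis) summed over all loci of each of the 9 IAP internal names, for 3 WT (blue) and 4 mutant (orange) libraries; each symbol is 1 library and the bars give mean and SD per group. WT replicate 2 is the highest library for 6 of the names drawn, the groups overlap for each name, and IAPEy-int has the widest spread, from 40.9 to 311 CPM.

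The 9 names differed in uniquely mapped reads by over 3 orders of magnitude, and none passed the test between genotypes. IAPEY4_I-int had 71.0% of the reads from 521 loci, of which 34 were 5000 bases or longer and 423 were under 500 bases. Per kilobase of annotated sequence it averaged 14.6 CPM, beside 1.35 for IAP1-MM_I-int, 0.162 for IAP-d-int, 0.122 for IAPEz-int and less than that for the other 5 names. Reads shared by similar copies were not counted, so these values do not rank the names by RNA level. IAPEz-int, the most numerous internal sequence with 7319 loci, had 16.7% of the reads. Its loci had a median length of 753 bases. Pieces of 1 name and strand within 500 bases of each other were taken as 1 stretch, and 86.9% of the IAPEz-int loci lay in a stretch with an IAP LTR within 200 bases of both ends, beside 57.1% of all 14825 loci.

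IAPEY4_I-int summed to 4824, 5949 and 7925 CPM in WT replicates 1 to 3 and to 5518, 5674, 6835 and 6323 CPM in mutant replicates 1 to 4. The mutant libraries lay within the WT range. The log2 fold change was -0.034 (adjusted p = 0.904, edgeR quasi-likelihood test over 831 names). IAPEz-int had 1292, 2057 and 1351 CPM in the WT and 1415, 1239, 1529 and 1262 CPM in the mutant libraries. WT replicate 2 alone stood above the others, and the fold change was -0.20 (adjusted p = 0.441).

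IAP1-MM_I-int had 459, 814 and 465 CPM in the WT and 533, 483, 500 and 502 CPM in the mutant libraries, again with WT replicate 2 highest (log2 fold change -0.20, adjusted p = 0.511, edgeR). A single locus of 272 bases, chr13:111487910-111488181, held 63.3% of its reads. This piece lies in an untranslated exon of *Gpbp1*, a gene for a promoter-binding protein, on the same strand. It had 340 ± 67.1 CPM in WT and 340 ± 13.6 CPM in mutant testes, and its reads cannot be told apart from those of *Gpbp1* mRNA. Without it, the name had 180, 402 and 137 CPM in the WT and 204, 156, 147 and 150 CPM in the mutant libraries.

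IAPEy-int had the largest difference of the 9 names, and it rested on 1 locus and 1 library. The name summed to 97.5, 311 and 40.9 CPM in WT replicates 1 to 3 and to 115, 50.9, 56.9 and 55.5 CPM in mutant replicates 1 to 4. WT replicate 2 was far above the rest, and the library labelled WT replicate 3 was the lowest of all. The log2 fold change was -1.09 (adjusted p = 0.321, edgeR), and -0.036 without WT replicate 2. The locus chr7:6616683-6624199 held 60.1% of the reads of the name. Without this locus, a sum chosen after the values were seen, IAPEy-int had 29.2, 32.3 and 37.9 CPM in the WT and 54.7, 37.4, 51.1 and 51.0 CPM in the mutant libraries, and 1 pair of libraries overlapped between the groups.

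The other 5 names were low and close between genotypes. IAPEY3-int had 166 ± 16.3 CPM in WT and 186 ± 10.4 CPM in mutant testes (log2 fold change 0.17, adjusted p = 0.294). IAPLTR3-int had 139 ± 53.0 and 135 ± 14 CPM and IAP-d-int 106 ± 18.8 and 103 ± 7.59 CPM, with log2 fold changes of -0.028 and -0.041. IAPEY5_I-int and IAPA_MM-int stayed under 10 CPM in every library (log2 fold changes 0.29 and -0.058), with 151 and 80 reads in all. Of the 831 names tested, 0.12% were called higher and 0.0% lower at an adjusted p under 0.1. None of the 9 was called by edgeR, and 0 had an unadjusted p under 0.05. DESeq2 called 0 of the 5 to which it gave an adjusted p. It called 4.45% of all 831 names higher, a share that counts names whether or not they had an adjusted p. Without WT replicate 2, 1 of the 9 passed, IAPEY3-int at a log2 fold change of 0.23 (adjusted p = 0.0925), but 14.1% of all 831 names were then called higher, a like share.

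**Figure D2:**
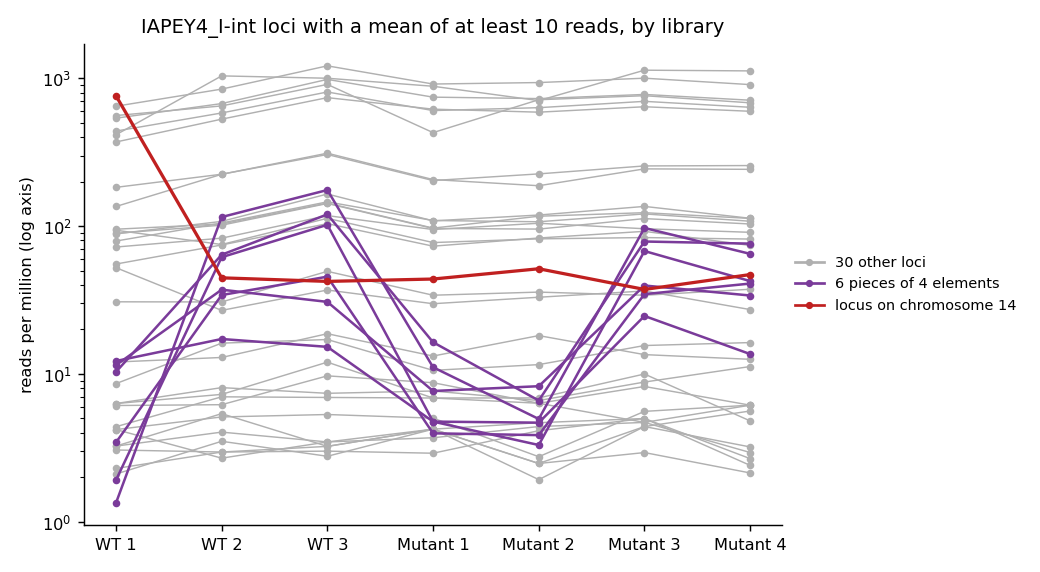
CPM (log axis) of the 37 IAPEY4_I-int loci with a mean of at least 10 reads in each of the 7 libraries; a line joins the values of 1 locus, and lines do not imply an order of libraries. The 30 grey loci stay within 2.79-fold across libraries, the 6 purple pieces differ by 5.17-fold to 131-fold, and the red locus on chromosome 14 is high in WT replicate 1 alone.

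Among the IAPEY4_I-int loci, 37 had a mean of at least 10 reads and held 99.8% of the reads of the name, and 25 of these were 5000 bases or longer. The strongest, chr19:9829174-9836838, holds the spliced gene AC132253.9 shown above and has an IAPEY4 LTR on either side. It had 3390, 3142 and 5261 reads in WT replicates 1 to 3 and 3464, 3403, 3414 and 3396 reads in mutant replicates 1 to 4. The 4 mutant embryos were close to one another, at 940 ± 43.2 CPM (SD, n = 4), and lay inside the WT range of 902 ± 288 CPM (SD, n = 3; log2 fold change 0.059, adjusted p = 0.980, edgeR). The longest of these loci, chr5:109645120-109652788, had 290, 277 and 450 reads in the WT and 277, 302, 314 and 277 reads in the mutant libraries (log2 fold change 0.050, adjusted p = 0.980).

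The other loci of this name could be split by their spread, with a limit of 4-fold between the highest and the lowest library that was set after the values were seen. For 30 loci the highest library had 1.5 to 2.79 times the CPM of the lowest (median 1.88), and their sum was 4010, 5560 and 7386 CPM in the WT and 5408, 5579, 6444 and 5986 CPM in the mutant libraries. WT replicate 1 was lowest at 20 of the 30 and the library labelled WT replicate 3 highest at 19. The same 2 libraries were lowest and highest in the sum over all loci.

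Pieces of 4 elements went up and down together across libraries without following genotype. They were chr16:3625352-3628768 and chr16:3628866-3632950, chr15:77684198-77691847, chr5:110016076-110023589, and chr6:3333741-3337110 and chr6:3337208-3341286. The first of them had 7, 428 and 760 reads in WT replicates 1 to 3 and 42, 18, 331 and 243 reads in mutant replicates 1 to 4. The piece on chromosome 15 had 54, 238 and 520 reads in the WT and 62, 24, 268 and 285 reads in the mutant libraries. WT replicate 1 and mutant replicates 1 and 2 were low, and the other 4 libraries were high. The piece on chromosome 5 had 18, 127 and 197 reads in the WT and 15, 14, 118 and 153 reads in the mutant libraries, with the same 3 libraries low.

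The 6 pieces together had 40.7, 329 and 489 CPM in the WT and 48.6, 31.6, 342 and 272 CPM in the mutant libraries, so that each genotype held both low and high embryos. At the second piece on chromosome 6, WT replicate 1 was not low, with 64 reads beside 64 and 66 in the other WT libraries. Both pieces on chromosome 16 nonetheless passed the threshold in the locus test described next, with log2 fold changes of -1.13 and -0.90 (adjusted p = 6.69e-08 and 0.000939, edgeR).

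In the test locus by locus, most IAP internal loci called lower in mutant testes had their most reads in 1 WT library. edgeR's quasi-likelihood test, at an adjusted p under 0.1 over 464695 loci, called 26 of the 1051 IAP internal loci lower in the mutant (2.47%), beside 0.0594% of all loci tested. It called 3 higher (0.285%), beside 0.0213%. The median log2 fold change of the 1051 loci was -0.13 and that of all loci 0.022. WT replicate 2 had the most reads of the 7 libraries, relative to depth, at 22 of the 26 loci, WT replicate 1 at 2 and the library labelled WT replicate 3 at 2.

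Groups did not overlap at 3 of the 26 loci. Over the 1051 loci, every mutant library was below every WT library at 26 (2.47%) and above at 32 (3.04%), beside 2.84% and 3.12% of all loci tested, so loci with separate groups were about as common among IAP internal loci as elsewhere and were not mostly lower. Without WT replicate 2, 4 loci were called lower and 4 higher, beside 0.0163% and 0.0246% of all loci, and the median was 0.10. Without the library labelled WT replicate 3, 39 were called lower, beside 0.108% of all loci. DESeq2 gave no adjusted p for 855 of the 1051 loci, 8 of the 29 called by edgeR among them, and for 83.4% of all loci, so that most loci could not be called by it. Of the 196 with one, it called 0 in either direction, beside 0.00237% of all loci tested lower and 0.000861% higher. Of the 1051, 32 were lower and 10 higher at an unadjusted p under 0.05 in DESeq2, beside 0.482% and 0.628% of all loci.

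**Figure D3:**
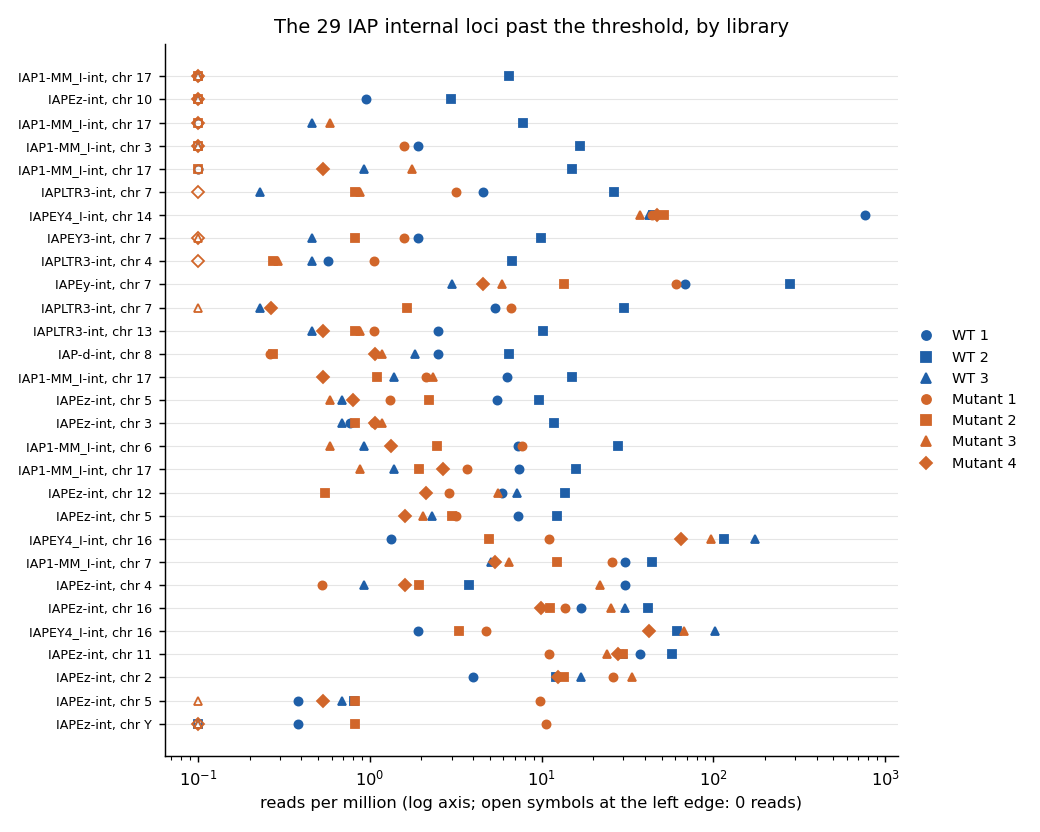
CPM (log axis) in each library for the 29 IAP internal loci called by edgeR, ordered by fold change with the loci lowest in the mutant at the top; blue symbols are WT and orange symbols mutant libraries, and open symbols at the left edge stand for 0 reads. WT replicate 2 (blue square) lies to the right of all others at 22 loci, and the groups are apart at 3.

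The call with the smallest p-value shows how 1 library carried such calls. The IAPEY4_I-int locus chr14:43804701-43812362, which holds Gm49083, had 3996, 166 and 183 reads in WT replicates 1 to 3 and 166, 187, 127 and 176 reads in mutant replicates 1 to 4. WT replicate 1 was at 763 CPM, 14.8 times the next library, and the other 6 were close together. The log2 fold change was -2.66 (adjusted p = 6.51e-57, edgeR) and turned to 0.053 without WT replicate 1. A fit of the same test that lets loci keep a spread of their own (the robust option, chosen after seeing the data) gave an adjusted p of 0.981.

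A stretch of chromosome 7 held several loci with the same order of libraries. IAPEy-int chr7:6616683-6624199, 7517 bases between 2 IAPEY LTRs and outside protein-coding genes, had 358, 1036 and 13 reads in WT replicates 1 to 3 and 230, 49, 20 and 17 reads in mutant replicates 1 to 4 (log2 fold change -2.44, adjusted p = 1.61e-40). A pair of IAPLTR3-int pieces lies upstream on the same strand. chr7:6608623-6609977 had 24, 98 and 1 reads in the WT and 12, 3, 3 and 0 reads in the mutant libraries, and chr7:6610668-6611826 had 28, 113 and 1 and 25, 6, 0 and 1 reads. WT replicate 2 was highest at all 3, WT replicate 1 and mutant replicate 1 came next, and the library labelled WT replicate 3 was as low as the lowest mutants. The robust fit gave an adjusted p of 0.981 for each.

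IAP1-MM_I-int loci outside *Gpbp1* made up 8 of the 29 calls. chr3:97376351-97379005 had 10, 62 and 0 reads in the WT and 6, 0, 0 and 0 reads in the mutant libraries, and chr6:104704407-104707322, in *Cntn6* on the opposite strand, had 38, 103 and 4 and 29, 9, 2 and 5 reads. At chr17:4402335-4403168, 56 of the reads were in WT replicate 2, beside 0 and 4 in the other WT libraries and 0, 0, 6 and 2 in the mutants. WT replicate 2 was again the highest at each. A locus just past the limit, chr1:161610679-161613634, had 51 of its reads in WT replicate 2 and no more than 9 in any other library (adjusted p = 0.129).

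In the robust fit, 10 of the 26 loci were still called lower and 0 were called higher, beside 0.0364% and 0.0146% of all loci. All 10 had their most reads in WT replicate 2. The locus chr12:108079650-108082926, IAPEz-int, had 31, 51 and 31 reads in the WT and 11, 2, 19 and 8 reads in the mutant libraries. It had 8.93 ± 4.19 CPM in WT (SD, n = 3) and 2.79 ± 2.10 CPM in mutant testes (SD, n = 4), with every mutant library below every WT library (log2 fold change -1.65, adjusted p = 0.000313 in the robust fit and 0.487 in DESeq2).

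Groups were also apart at 2 other loci of these 10. IAP-d-int chr8:47794951-47797798 had 13, 24 and 8 reads in the WT and 1, 1, 4 and 4 reads in the mutant libraries (log2 fold change -2.28, robust adjusted p = 0.0146). IAPEz-int chr11:116389793-116391050, in *Rnf157*, a gene for a ring finger protein, on the opposite strand, had 195, 213 and 130 reads in the WT and 42, 109, 82 and 104 reads in the mutant libraries. Here the lowest WT and the highest mutant library were within 1 CPM of each other (log2 fold change -0.83, robust adjusted p = 0.00557).

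At the other 7 the groups overlapped. Both pieces in *Rnf216*, a gene for a ubiquitin ligase, chr5:143005049-143005753 and chr5:143006191-143009117, were high in WT replicates 1 and 2 only, with 29, 36 and 3 and 38, 46 and 10 reads in the WT and 2 to 8 and 6 to 12 reads in the mutants. The same held for chr17:34544223-34544844 and chr17:34545264-34546257, 2 pieces of 1 IAP1-MM_I-int element in a pseudogene, Btnl7-ps, with 39, 59 and 6 and 33, 56 and 6 reads in the WT. chr16:32149701-32152967, in *Nrros*, had 89, 155 and 133 reads in the WT and 52, 41, 87 and 37 reads in the mutants. chr13:61941368-61943901, IAPLTR3-int, had 13, 38 and 2 reads in the WT and 2 to 4 in the mutants. chr10:83789029-83792246 had 5, 11 and 0 reads in the WT and 0 in all mutants. At a floor of 3 reads over the mutant group, the pooled reads are at least 5.85-fold lower in the mutant. The locus passed the filter through the reads of WT replicates 1 and 2 alone. This bound leaves out the spread between embryos and by itself says nothing of genotype. The unadjusted p in DESeq2 was 0.197. At 5 of the 10 loci, the library labelled WT replicate 3 was below at least 1 mutant library.

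The 3 loci called higher in mutant testes belonged to IAPEz-int, each a piece next to an IAPLTR2_Mm LTR. The first and the third by p-value were pieces of the same length, 599 bases. chrY:87777215-87777813 had 2, 0 and 0 reads in the WT and 40, 3, 0 and 0 reads in the mutant libraries, and chr5:23572321-23572919, in *Srpk2* on its strand, had 2, 3 and 3 and 37, 3, 0 and 2 reads. Mutant replicate 1 carried both. chr2:118556820-118557899 had 21, 45 and 74 reads in the WT and 99, 49, 115 and 47 reads in the mutants, and the groups overlapped (log2 fold change 0.98, adjusted p = 0.00919). None of the 3 was called in the robust fit. Without WT replicate 1 or mutant replicate 1 the count fell to 1 and 0, beside 0.0242% and 0.00914% of all loci.

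The locus with most reads of each further name showed little difference. IAPEz-int chr5:30223381-30229822 had 262, 284 and 320 reads in the WT and 295, 191, 303 and 262 reads in the mutant libraries (log2 fold change 0.12, edgeR). IAPEY3-int chr5:45816483-45822858, in *Lcorl* on the opposite strand, had 107, 76 and 89 and 88, 84, 64 and 68 reads (log2 fold change 0.025), and IAPLTR3-int chr13:12829120-12831628 had 149, 125 and 156 and 142, 114, 123 and 110 reads (log2 fold change 0.041). IAP-d-int chrX:78509876-78514592, in *Prrg1* on its strand, had 78, 79 and 73 and 71, 66, 54 and 71 reads (log2 fold change 0.032). None passed edgeR's test (adjusted p = 0.980 for each), and the groups overlapped at each. IAPEY5_I-int chr15:58693795-58697111 and IAPA_MM-int chrX:103050932-103051429 had no more than 7 reads in any library.

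The longest loci mostly had few reads. Of the 5 longest loci tested, 3 were IAPLTR3-int. The longest, chr7:42973005-42980740 (7736 bases), had 0 reads in each WT library and 1, 1, 2 and 6 reads in mutant replicates 1 to 4, too few to give a fold change. chr14:27562409-27570120 had 8, 10 and 0 and 7, 1, 2 and 0 reads, and chr7:62564651-62572326 had 0 to 3 reads per library. IAPEY3-int chr10:54527315-54535012 had 1, 1 and 2 and 1, 1, 3 and 7 reads. The IAPEY4_I-int locus on chromosome 5 given above, 7669 bases long, was the only one of these 5 with more than 10 reads in a library.

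**Figure D4:**
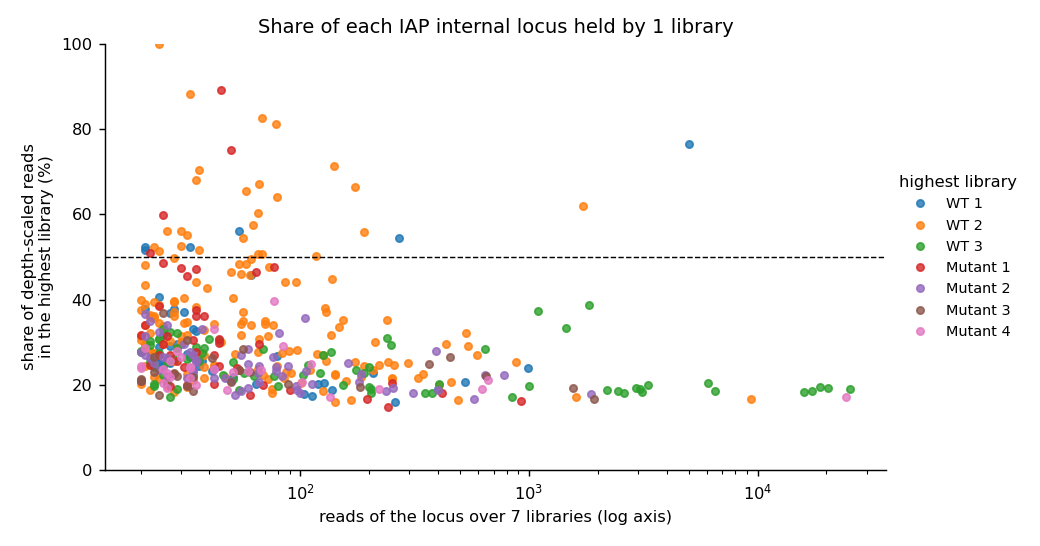
Share of the depth-scaled reads of each locus that fell in its highest library (%), against its reads over the 7 libraries (log axis), for the 442 IAP internal loci with at least 20 reads; colours give the highest library and the dashed line marks 50%. Above the line lie 36 loci, 26 of them highest in WT replicate 2, 6 in WT replicate 1 and 4 in mutant replicate 1.

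Some IAP internal loci had most of their reads in 1 embryo. Of the 442 loci with at least 20 reads, 36 (8.14%) had over 50% of their reads, scaled to library depth, in 1 library, beside 0.192% of all 221334 repeat loci with as many reads. The median share in the highest library was 25.8%, beside 23.0% for all loci. WT replicate 2 was that library for 26 of the 36, WT replicate 1 for 6 and mutant replicate 1 for 4, and no locus was gathered in any of the other 4 libraries. WT replicate 2 was the highest library at 37.1% of the 442 loci, beside 12.1% of all loci.

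These 36 loci were not spread evenly over names or lengths. IAP1-MM_I-int had 11 of its 34 loci with at least 20 reads among them, IAPLTR3-int 5 of 18, IAPEz-int 15 of 286 and IAPEY4_I-int 1 of 41. By length, they were 3 of 21 loci under 500 bases, 19 of 156 of 500 to under 2000 bases, 9 of 128 of 2000 to under 5000 bases and 5 of 137 of 5000 bases or more. Their groups overlapped in each case, and 17 of them were among the 29 loci called by edgeR. Without them the sum over all IAP internal loci was 8420 ± 2072 CPM in WT (SD, n = 3) and 8350 ± 700 CPM in mutant testes (SD, n = 4), with a log2 difference of 0.016 (p = 0.943, exact).

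Genes of the pathways that silence IAP elements were measured in the same libraries. None of 15 piRNA pathway genes tested passed an adjusted p of 0.05 in limma. At an unadjusted p under 0.05, 9 of the 15 were lower, beside 8.79% of all genes. All 15 had a negative fold change, with a median of -1.12 beside 0.0084 over all 13988 genes, of which 0.00715% were called lower. *Tdrkh*, which holds PIWI proteins at mitochondria, had 6.42, 6.84 and 4.31 FPKM in the WT and 2.78, 3.02, 3.43 and 2.74 FPKM in the mutant libraries (log2 fold change -0.84, standard error 0.15, adjusted p = 0.133). *Ddx4*, a germ cell RNA helicase, had 83.2 ± 26.3 and 37.6 ± 4.08 FPKM (-1.08, adjusted p = 0.136), and *Pld6*, a mitochondrial nuclease of piRNA biogenesis, 2.03 ± 0.259 and 1.15 ± 0.168 FPKM (-0.62, adjusted p = 0.157). Groups were apart for all 3. Without the library labelled WT replicate 3, 12 of the piRNA pathway genes were called, in a fit that called 3.99% of all genes lower and 1.16% higher.

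Of 19 chromatin and DNA methylation genes, none was called, with a median fold change of -0.081. At an unadjusted p under 0.05, 4 were lower and 1 higher, beside 8.79% and 8.21% of all genes. *Suv39h2* and *Setdb1*, histone H3K9 methyltransferases, had log2 fold changes of -0.26 (adjusted p = 0.169) and -0.23 (adjusted p = 0.194), and *Hells*, a chromatin remodeler needed for DNA methylation, -0.40 (adjusted p = 0.169). The 6 germ cell genes of the marker list also had negative fold changes throughout (median -0.97), and the part of germ cell number in these differences was not tested.

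Some of these genes, chosen after their values were seen, had an order of libraries like that of the IAP loci on chromosome 7. This order was not particular to silencers of LTR elements. WT replicate 2, then WT replicate 1, then mutant replicate 1 were also highest for *Gtsf1*, *Tdrd9*, *Asz1* and *Mael* of the piRNA list. The germ cell genes *Nanos3* and *Dnd1* had the same 3 libraries highest, whereas *Dazl* and *Pou5f1* were highest in WT replicate 1. Other loci high in WT replicate 2, such as chr17:4402335-4403168, had another order. *Dnmt3l*, the cofactor of new DNA methylation, had 0.883, 7.35 and 0.0754 FPKM in the WT libraries, in replicate order, and 1.95, 0.424, 0.0813 and 0.0826 FPKM in the mutants. *Morc1*, a germ cell silencer of LTR elements, had 11.1, 26.6 and 1.05 and 8.05, 2.30, 0.795 and 0.940 FPKM. *Piwil4*, the nuclear PIWI protein, had 2.62, 11.2 and 0.268 and 1.64, 0.369, 0.312 and 0.277 FPKM. WT replicate 2 was highest for these 3 genes, *Dnmt3l*, *Morc1* and *Piwil4*, followed by WT replicate 1 and mutant replicate 1 in either order. The library labelled WT replicate 3 lay within the mutant range for *Morc1* and below every mutant for *Dnmt3l* and *Piwil4*. Their part in the IAP values was not tested.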

How the data were processed

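RNA of 1 pair of E14.5 testes per library was depleted of ribosomal RNA, without poly-A selection, and sequenced without strand. The authors aligned reads to mm10 (TopHat2 2.0.12 per the labels' processing notes), discarded reads with several map positions and tallied the rest on RepeatMasker loci with HTSeq-count, and the deposited values are raw counts. The authors made the deposited FPKM values per gene with Cuffquant and Cuffnorm. The header of each deposited table lacks the tab between the names of WT replicate 3 and mutant replicate 1; columns were assigned after restoring it. Columns were taken by label.

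Loci averaging 1 read or more per library were tested over the whole table with edgeR 4.0.16 (TMM, glmQLFit, two-sided, Benjamini-Hochberg, threshold 0.1), and names with a mean sum of at least 10 reads with the same library sizes. Sums were compared by two-sided exact permutation tests on log2 CPM. Genes averaging 0.5 FPKM or more were tested with limma 3.58.1 on log2(FPKM + 0.5), which understates changes of low genes (threshold 0.05). Loci were placed with bedtools 2.31.1 and GENCODE M21; locus coordinates are 1-based and inclusive. Tests were run on simulated data with known changes. The locus test recovered 167 of 200 loci shifted by 2 on the log2 scale, with 9 false calls. The gene test recovered 195 of 200 genes shifted by 1.5, with 6 false calls. No simulated locus was set high in 1 library only, so the simulation does not cover such calls. PCR reads without molecular identifiers are not independent molecules, and precision is given by the spread of libraries.

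Members, lists and tests were chosen with earlier results of these data known. Loci named were those past the threshold (at most 10 each way by p-value), the locus with most reads of each name, the 6 with the largest share in 1 library at a mean of at least 10 reads, and the 5 longest tested; genes named were the 3 with the smallest p-values of each silencing list and *Glis3*. The loci of the robust fit, further IAPEY4_I-int loci, *Mrs2*, *Dnmt3l*, *Morc1* and *Piwil4* were chosen after their values were seen. So were the genes named beside the last 3 for their order of libraries. Alternatives were DESeq2 1.42.0, its size factors, library size only, other filters and thresholds, other length limits, pseudocounts of 0.1 and 1, the replicate block, and leaving out each library. Analyses in R 4.3.3 and Python 3.11.15. Sequences outside annotated exons and promoters are not shown here.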

Additional observations from a re-analysis of the deposited data

Results flagged for a closer look

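Among the 4 mutant libraries, a value was singled out where the gap between the highest or the lowest library and its neighbour took up most of the range of the group (Dixon's criterion at 95%). Of 52 sets of 4 values examined, 8 were singled out. Chance singles out about 1 in 20 of independent sets, but some of these loci were named because 1 library held most of their reads, and a name shares reads with its loci, so the count cannot be set against that share.

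Mutant replicate 1 was singled out as high for 5 of them. It had 115 CPM of IAPEy-int in all and 60.7 CPM at the IAPEy-int locus chr7:6616683-6624199, where the other mutants had 4.54 to 13.5 CPM. It also had 10.6 CPM at IAPEz-int chrY:87777215-87777813 and 9.77 CPM at IAPEz-int chr5:23572321-23572919, where no other mutant passed 0.825 CPM, and 1.58 CPM at IAP1-MM_I-int chr3:97376351-97379005, where the others had 0 reads.

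Mutant replicate 2 was low for IAP-d-int at 91.3 CPM. Mutant replicate 4 was high for IAPEY3-int at 202 CPM and low for IAPA_MM-int at 1.60 CPM, a name with 80 reads over all libraries.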

How the results depend on the processing

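Of the sums, only that of IAPEY3-int passed the threshold in any alternative, without WT replicate 2. Fold changes that turned did not all stay near 0. With 1 library left out, that of IAPLTR3-int ranged from -0.20 to 0.30 and that of IAP1-MM_I-int from -0.34 to 0.10. The calls of loci depended on the fit. DESeq2 called 0 loci higher and 0 lower, with no adjusted p for 855 of 1051. A filter at a mean of 10 reads also called 0 higher and 0 lower, beside 0.0% and 0.0279% of all loci, and the robust fit, added after seeing the data, 0 and 10. Of the 164 loci at the filter of 10 reads, 2 were higher and 32 lower at an unadjusted p under 0.05, beside 3.49% and 3.4% of all loci. The median log2 fold change of the loci tested was -0.24 with that filter and 0.047 without a filter. Of the 223 loci with at least 50 reads, 19 had over 50% of their reads in 1 library, beside 0.0918% of all loci with as many reads. Without such loci, the log2 difference was 0.016 for all loci, 0.082 for loci of 5000 bases or more and 0.054 for loci outside genes; with library size only it was -0.013 for loci on the strand of the gene. Replicate numbers did not pair the libraries (correlations of deviations 0.034, -0.077 and 0.022); with the replicate block 2 loci were called higher and 18 lower, beside 0.0148% and 0.0293% of all loci, and IAPA_MM-int turned to 0.15, with no name called.

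Uncalled loci also turned. With library size only, the log2 fold change was -0.034 at IAP-d-int chrX:78509876-78514592, -0.061 at IAP1-MM_I-int chr13:111487910-111488181, -0.045 at IAPEY3-int chr5:45816483-45822858, -0.0016 at IAPEY4_I-int chr19:9829174-9836838, -0.028 at IAPLTR3-int chr13:12829120-12831628 and -0.013 at IAPEY4_I-int chr5:109645120-109652788. With a mean of at least 10 reads it was -0.019, -0.047, -0.032 and -0.013 at those of IAP-d-int, IAP1-MM_I-int, IAPEY3-int and IAPLTR3-int. At those of IAP1-MM_I-int and IAPEY3-int it was -0.020 and -0.0010 in DESeq2, -0.021 and -0.0010 with its size factors, and -0.028 and -0.011 without a filter.

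Leaving out 1 library at a time gave 0 to 4 loci called higher, beside 0.00914% to 0.0253% of all loci. It gave 4 to 39 called lower, beside 0.0163% to 0.108%. The median log2 fold change of the loci tested ranged from -0.21 to 0.10. From 0 to 1 names and 0 to 12 piRNA pathway genes were called. The log2 fold change ranged from -0.13 to 0.087 for IAP-d-int, -0.34 to 0.10 for IAP1-MM_I-int, -0.18 to 0.13 for IAPA_MM-int, -0.18 to 0.18 for IAPEY4_I-int, -0.084 to 0.55 for IAPEY5_I-int, -0.32 to 0.018 for IAPEz-int and -0.20 to 0.30 for IAPLTR3-int. It ranged from -0.23 to 0.034 for all loci, -0.15 to 0.095 for loci under 500 bases, -0.28 to 0.071 for 500 to under 2000 bases, -0.31 to 0.070 for 2000 to under 5000 bases, -0.18 to 0.089 for 5000 bases or more, -0.23 to 0.024 inside genes, -0.23 to 0.037 outside genes and -0.13 to 0.16 on the strand of the gene. At single loci it ranged from -0.37 to 2.57 at chr5:23572321-23572919 (lowest without mutant replicate 1), -3.22 to 0.053 at chr14:43804701-43812362 (highest without WT replicate 1), -4.55 to 0.33 at chr17:4402335-4403168 and -2.11 to 1.51 at chr1:161610679-161613634 (both highest without WT replicate 2). Of loci never called it ranged from -0.077 to 0.16 at chrX:78509876-78514592, -0.12 to 0.14 at chr13:111487910-111488181, -0.035 to 0.081 at chr5:45816483-45822858, -0.13 to 0.33 at chr19:9829174-9836838, -0.051 to 0.24 at chr5:30223381-30229822, -0.049 to 0.12 at chr13:12829120-12831628 and -0.14 to 0.31 at chr5:109645120-109652788.

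Reads that map to several copies were not counted, so young identical copies are under-measured by an unknown amount. With 3 and 4 libraries, leaving out a WT library raises the smallest exact p-value to 0.0667 and a mutant library to 0.05.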

Other observations

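The Y chromosome held 3253 of the IAP internal loci and few of their uniquely mapped reads. Its loci together had 895 reads, and 17 of them had a mean of at least 1 read. In WT replicates 1 to 3 they summed to 21, 21 and 29.5 CPM and in mutant replicates 1 to 4 to 51.0, 29.7, 46.1 and 32.3 CPM. Every mutant library was above every WT library, though mutant replicate 2 and the library labelled WT replicate 3 were close. The means were 39.8 ± 10.4 CPM (SD, n = 4) and 23.8 ± 4.94 CPM (SD, n = 3), with a log2 difference of 0.72 (two-sided exact permutation test, p = 0.0571, unadjusted). This sum was chosen after the values were seen, and 40 of the reads were those of mutant replicate 1 at chrY:87777215-87777813.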
